A study of Mus musculus with 6 samples.

Results

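Transcripts of 9 genes that carry the calcium signal from calmodulin to the transcription factor CREB were examined in leukemia-initiating cells (LICs): the CaM kinase genes Camkk2, Camk1, Camk1d, Camk2d, Camk2g and Camk4, the calmodulin genes Calm2 and Calm3, and Creb1. They were chosen by symbol from the 27179 genes of the deposited table, and all 9 were found. The cells were YFP+Mac-1+c-Kit+ LICs from bone marrow of C57BL/6 mice given as 8 weeks old, in a model where a retrovirus carrying MLL-AF9 and YFP had been put into lineage-negative fetal liver cells before transplantation into irradiated mice, so that cells of both groups carried MLL-AF9. The groups were 3 libraries labelled Asic3-/- (Asic3-null), described as made with fetal liver cells without the acid-sensing channel gene Asic3, and 3 labelled Asic3+/+ (WT), called knockout-labelled and WT-labelled here. No source states whether the 3 libraries of a group came from separate mice, so p values measure the spread between these libraries. Of the 9 genes, 7 had a mean of at least 1 RPKM (reads scaled to the length of the gene and the size of the library) and were tested among 12037 genes, and Camk2d and Camk4 stayed below that level.

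Calmodulin is a small calcium sensor that binds and opens the kinases of this family when calcium rises. CaMKK2 phosphorylates CaMKI and CaMKIV in their activation loops, CaMKII instead works as a ring of subunits that phosphorylate each other, and several of these kinases can phosphorylate CREB, which then recruits CBP or p300 at cAMP response elements. In myeloid cells this path is known for its links to granulocyte function, and CREB is known as a proto-oncogene in acute myeloid leukemia.

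The files gave RPKM only, but each value corresponded to whole reads once a library size was inferred, between 1947168 and 2381861 reads per library. Asic3 ran against the labels, with 4.11 to 9.12 RPKM in the knockout-labelled libraries and 0.435 to 1.85 RPKM in the WT-labelled ones, so directions below are those of the labels. Asic3 was called higher in the knockout-labelled libraries, from 90 reads against 14 reads (log2 fold change 1.81, adjusted p = 0.0260 from limma). The call was lost in 6 of 13 alternatives. All 4390 bases of the RefSeq span of Asic3 lie inside that of Cdk5, a kinase gene. Cdk5 had 22.2 ± 1.0 RPKM against 20.3 ± 4.4 RPKM (SD, n = 3 each), with overlap, and was not called. Reads in the shared span cannot be assigned without strand, and their part in the Asic3 difference was not tested. Asic3 is therefore an uncertain check of the labels. Xist (46.5 to 71.9 RPKM against 0.0236 to 0.0573 RPKM) and 4 Y-linked genes (0 reads against 1672 reads) also separated the groups, and genotype and the sex of the cells cannot be told apart. The gate gene Kit had 14.4 to 20.4 RPKM in the knockout-labelled libraries and 8.97 to 15.3 RPKM in the WT-labelled ones, and was not called (log2 fold change 0.64, adjusted p = 0.219 from limma). Itgam, which encodes Mac-1, was called lower, with 12.3 to 16.9 RPKM against 55.1 to 89.5 RPKM (log2 fold change -2.35, adjusted p = 0.00072 from limma). All 9 markers of mature neutrophils were called lower in the knockout-labelled libraries, with a summed level of 211 to 348 RPKM against 3815 to 4259 RPKM. Of 6 tested monocyte and macrophage markers 3 were called lower, with a summed level of 1125 to 1328 RPKM against 1532 to 1696 RPKM over 7 genes. Most of that sum was Ly6c2, with means of 1039 against 1316 RPKM, which was not called (adjusted p = 0.166 from limma). The called markers had means of 22.9 against 66.5 RPKM (Csf1r), 3.16 against 10.6 RPKM (Ccr2) and 10.3 against 27.6 RPKM (Adgre1). In bulk RNA, fewer cells of a type and less RNA per cell cannot be told apart.

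Because CREB acts on promoters, the 250 bases before transcript starts that RefSeq gives for the members were searched for the cAMP response element TGACGTCA and, on both strands, for its core TGACG, which lies within it. RefSeq windows (GRCm38.p6) were at hand for 6 members, with 7 windows in all, and the whole element was in none of them, against 1.55% of 32851 windows of all genes. The core was found in the windows of Camk1 and Calm3, against 17.8% of all windows. These 2 are shown, with Camk1d, the member whose level differed most among those tested, and Creb1 itself, 5′ to 3′ on the strand of the gene, with the core in capitals. The windows are chr6:113343923-113344172 on the minus strand for Camk1, chr7:16924033-16924282 on the minus strand for Calm3, chr2:5714763-5715012 on the minus strand for Camk1d (1 of its 2 windows) and chr1:64532554-64532803 on the plus strand for Creb1.
Camk1: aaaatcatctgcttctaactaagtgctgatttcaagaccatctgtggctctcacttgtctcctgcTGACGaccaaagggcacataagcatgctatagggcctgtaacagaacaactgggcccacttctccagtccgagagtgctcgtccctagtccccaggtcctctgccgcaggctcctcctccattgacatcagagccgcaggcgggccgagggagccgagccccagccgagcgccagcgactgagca
Calm3: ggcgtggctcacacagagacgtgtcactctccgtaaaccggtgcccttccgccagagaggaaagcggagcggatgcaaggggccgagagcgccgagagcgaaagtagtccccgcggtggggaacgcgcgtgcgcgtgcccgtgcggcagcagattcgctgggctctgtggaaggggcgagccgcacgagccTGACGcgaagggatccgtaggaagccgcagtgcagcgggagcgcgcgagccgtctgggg
Camk1d: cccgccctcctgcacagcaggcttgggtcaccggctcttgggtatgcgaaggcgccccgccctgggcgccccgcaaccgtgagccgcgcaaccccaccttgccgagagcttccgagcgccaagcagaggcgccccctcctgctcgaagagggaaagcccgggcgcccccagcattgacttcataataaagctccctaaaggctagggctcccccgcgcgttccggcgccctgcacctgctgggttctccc
Creb1: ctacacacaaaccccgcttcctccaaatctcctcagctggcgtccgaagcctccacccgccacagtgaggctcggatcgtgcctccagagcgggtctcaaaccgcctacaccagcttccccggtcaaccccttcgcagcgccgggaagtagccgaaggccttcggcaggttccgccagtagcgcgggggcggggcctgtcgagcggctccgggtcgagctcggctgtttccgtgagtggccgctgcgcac
The windows of Camk1 and Calm3 lie outside the span given here for the gene, whereas 98 bases of this Camk1d window and 10 bases of the Creb1 window lie inside it. Of all 7 windows, 3 were partly and 2 wholly inside the span of their gene. The core began 185 bases before the start in Camk1 and 59 bases before it in Calm3. These matches describe letters in the windows and say nothing of binding.

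LICs transcribed calmodulin far above its kinases. On the RPKM scale, which allows levels of different genes to be compared per length, the means over 6 libraries were 233.6 RPKM for Calm2 and 137.1 RPKM for Calm3, and 97.5% of the tested genes lay below Calm2. The kinases followed with 31.6 RPKM for Camk2g, 20.7 RPKM for Camk1 and 16.4 RPKM for Camkk2, all above the median of 14.4 RPKM over all tested genes. Creb1 (10.2 RPKM), Camk1d (4.07 RPKM), Camk2d (0.533 RPKM) and Camk4 (0.0242 RPKM) came last. The ranges of Camk2g and Camk1, and those of Camk1 and Camkk2, overlapped over the libraries, although within each of the 6 libraries the order was the same, and no other neighbours in the order overlapped.

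**Figure D1:**
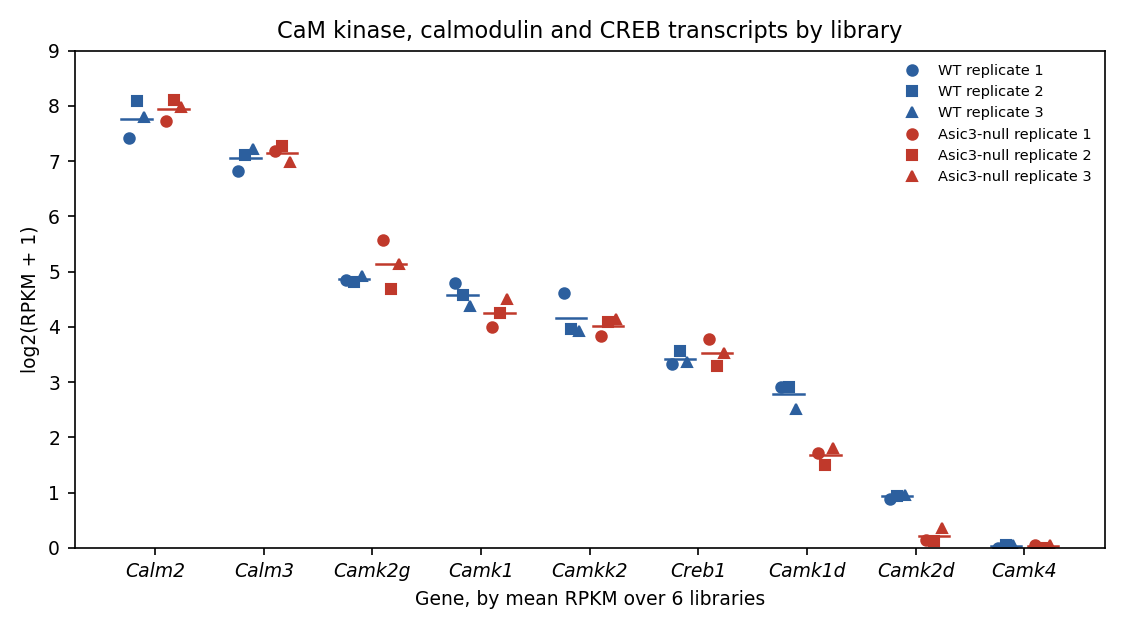
Level of each of the 9 genes on the log2(RPKM + 1) axis, with 1 point per library (blue, labelled WT; red, labelled Asic3-null; the symbol gives the replicate) and a line at the mean of 3. Only Camk1d and Camk2d have groups that do not overlap, and Camk4 sits at the floor in all 6 libraries.

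Of the 7 tested members, 1 was called different between the groups, Camk1d, which was lower in the knockout-labelled libraries, and 0 were called higher. Over all 12037 tested genes limma called 2.82% lower and 0.523% higher (Benjamini-Hochberg adjusted p under 0.05), 3.35% in all, so that 1 of 7 is a count that rests on a single gene. At an unadjusted p under 0.05 the count of members was also 1 lower and 0 higher, against 15.9% of all tested genes. The median log2 fold change of the 7 was 0.09, beside 0.03 over all tested genes. The groups did not overlap for 2 of the 9 members, Camk1d and Camk2d, both lower. Of the 16825 genes above 0 in any library, 18.6% did not overlap, 9.65% lower and 8.93% higher, and of the tested genes 22.6% did not, 11.4% lower and 11.2% higher.

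**Figure D2:**
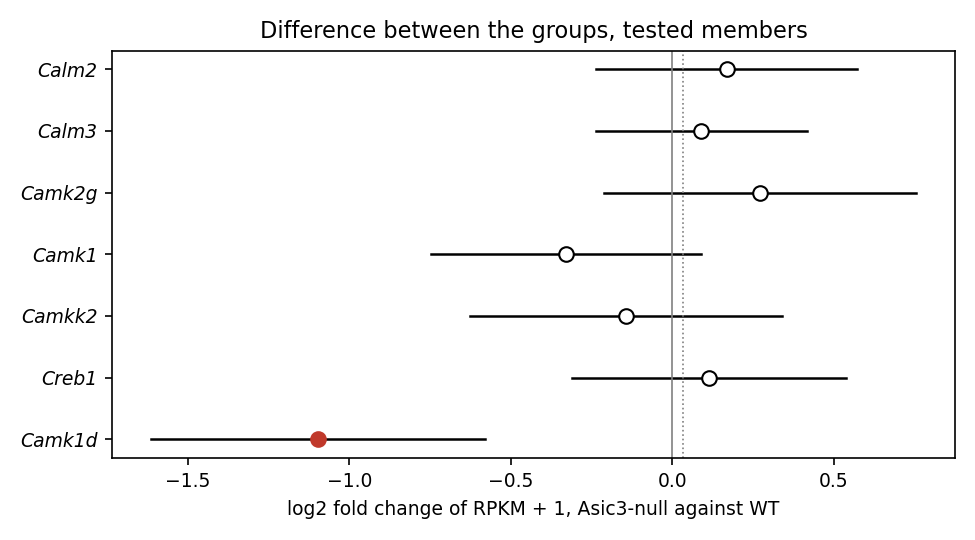
Log2 fold change of RPKM + 1 in the knockout-labelled libraries against the WT-labelled ones for the 7 tested members, with the 95% interval from limma. The filled point is called, the solid line marks 0 and the dotted line the median of all tested genes (0.03). Camk1d lies at -1.10, and the other 6 intervals cross 0.

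The upstream kinase Camkk2 (Entrez 207565, chromosome 5 of GRCm38.p6, 122718380 to 122779522), which activates CaMKI, CaMKIV and AMPK, had 13.3, 16.0 and 16.7 RPKM in the knockout-labelled libraries and 23.4, 14.6 and 14.3 RPKM in the WT-labelled ones. WT replicate 1 stood above the other 5 libraries, which overlapped. The log2 fold change was -0.14 (95% interval -0.63 to 0.34, adjusted p = 0.789 from limma) and turned to 0.077 without WT replicate 1. The span of P2rx4, an ATP-gated channel gene with a mean of 18.8 RPKM, overlaps that of Camkk2 by 11360 bases, and the kit did not mark strand. Its paralog Camkk1 had a lower level, 4.04 ± 1.62 RPKM against 7.45 ± 2.63 RPKM (SD, n = 3 each), and was not called (adjusted p = 0.299 from limma).

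Camk1 (Entrez 52163, chromosome 6, 113334124 to 113343922) encodes CaMKIα, 1 of the CaM kinases that the study examined upstream of CREB. It had 15.1, 18.2 and 21.7 RPKM in the knockout-labelled libraries and 26.9, 22.9 and 19.7 RPKM in the WT-labelled ones. The groups overlapped, since Asic3-null replicate 3 lay above WT replicate 3. These values rested on 50 to 81 reads per library. The level averaged 18.3 ± 3.3 against 23.2 ± 3.6 RPKM (SD, n = 3 each), and the log2 fold change was -0.33 (95% interval -0.75 to 0.09, adjusted p = 0.423 from limma), which on the RPKM + 1 scale runs from 0.596-fold to 1.06-fold. The value stayed below 0 in all 14 alternatives, between -0.45 and -0.20. The 3′ neighbour Ogg1, a DNA repair gene, overlaps Camk1 by 754 bases and had means of 12.1 RPKM in the knockout-labelled libraries and 7.78 RPKM in the WT-labelled ones, and reads in the shared stretch cannot be assigned without strand.

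Camk1d (Entrez 227541, chromosome 2, 5293457 to 5714860) encodes CaMKIδ, also known as CKLiK, a CaMKI kinase described in granulocytes. It had 2.31, 1.83 and 2.52 RPKM in the knockout-labelled libraries and 6.49, 6.57 and 4.69 RPKM in the WT-labelled ones. Every knockout-labelled library lay below every WT-labelled library. The level averaged 2.22 ± 0.35 against 5.92 ± 1.06 RPKM (SD, n = 3 each), a ratio of 0.375, from 31 to 97 reads per library. On the log2(RPKM + 1) scale, which understates the change of genes at this level, the log2 fold change was -1.10 (standard error 0.23, 95% interval -1.62 to -0.58, adjusted p = 0.0370 from limma). The direction held in all 13 alternatives that tested it, from -1.39 to -1.01. The call was lost without any 1 of the 6 libraries, where limma's adjusted p lay between 0.0523 and 0.132, in the fit to unfiltered genes (0.0775) and with the replicate number as a block (0.104). The neutrophil and monocyte markers given above moved the same way, and their part in this difference was not tested.

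The 2 CaMKI members took unequal shares of their class. Camk1d made up 12.2%, 8.94% and 9.98% of the summed RPKM of the CaMKI class (Camk1, Camk1d, Camk1g and Pnck) in the knockout-labelled libraries and 19.1%, 22.1% and 18.8% in the WT-labelled ones. The shares of the groups lay apart, with a two-sided exact permutation p of 0.10, the lowest value open to 3 against 3, and an adjusted p of 0.40 over 20 such values. Camk1g was listed at 0 in every library, and Pnck, an X-linked relative, stayed between 0.306 and 1.55 RPKM.

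Camk2g (Entrez 12325, chromosome 14, 20734873 to 20794157) encodes CaMKIIγ and was the CaM kinase gene with the highest level in every library. It had 46.4, 24.6 and 34.4 RPKM in the knockout-labelled libraries and 27.7, 27.0 and 29.3 RPKM in the WT-labelled ones. The knockout-labelled libraries held both the highest and the lowest value, while the WT-labelled ones lay close together. The log2 fold change was 0.27 (95% interval -0.21 to 0.76, adjusted p = 0.576 from limma) and came to 0.053 without Asic3-null replicate 1 and to 0.50 without Asic3-null replicate 2. Within the CaMKII class Camk2g made up 86.3% to 95.2% of the summed RPKM in the 6 libraries. Camk2a and Camk2b, the forms known from brain, had means of 2.38 and 0.30 RPKM over the libraries.

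Camk2d (Entrez 108058, chromosome 3, 126595487 to 126846326) encodes CaMKIIδ, known from heart. It had 0.0968, 0.0941 and 0.286 RPKM in the knockout-labelled libraries and 0.853, 0.921 and 0.947 RPKM in the WT-labelled ones. These values stood for 1, 1 and 3 reads against 8, 8 and 10 reads, and the groups did not overlap. Pooled over the group and divided by library size, the reads in the WT-labelled libraries were 5.71 times those in the knockout-labelled libraries (exact 95% interval 2.16 to 19.0, which covers counting error only). The gene was not tested at a mean of at least 1 RPKM. With no filter on low values, where limma called 1.71% of 16825 genes (1.45% lower and 0.262% higher), its log2 fold change was -0.72 (95% interval -1.03 to -0.41, adjusted p = 0.0493 from limma). With so few reads the size of the difference is poorly fixed, and the marker lists that moved the same way apply here as for Camk1d.

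Camk4 (Entrez 12326, on chromosome 18), the nuclear CaM kinase known from T cells and neurons, was close to unread. It had 0.035, 0 and 0.0345 RPKM in the knockout-labelled libraries and 0, 0.0416 and 0.0343 RPKM in the WT-labelled ones, which is 4 reads in 6 libraries and at most 1 in any. Of 7 T cell markers, Cd3e, Cd4 and Cd8a were listed at 0 in every library, Cd3d, Cd3g and Lck had at most 4 reads in any library, and Cd247 had 1.00 to 3.85 RPKM. The summed level of the list was 1.5 to 4.55 RPKM in the knockout-labelled libraries and 1.83 to 3.96 RPKM in the WT-labelled ones. No difference in Camk4 was detectable at this depth.

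**Figure D3:**
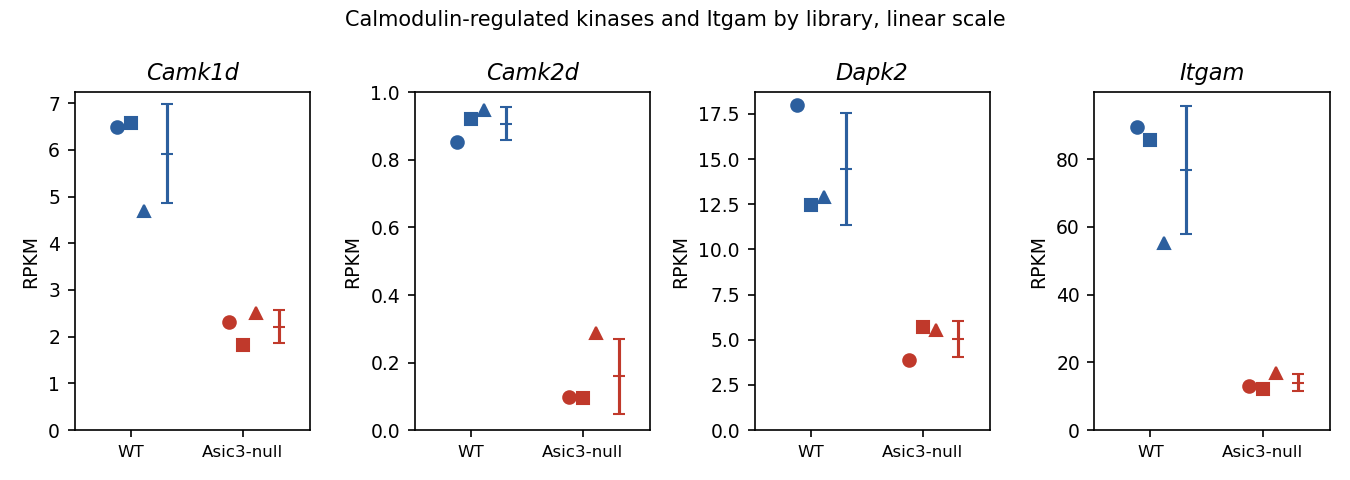
RPKM by library on linear axes from 0 for Camk1d, Camk2d, the related calmodulin-regulated kinase Dapk2 and the Mac-1 gene Itgam (blue, labelled WT; red, labelled Asic3-null), with the mean and SD of 3 libraries at the right of each group. In all 4 panels every knockout-labelled library lies below every WT-labelled library.

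Taken as a sum, the 6 kinase genes did not separate the groups. Their RPKM added to 77.3, 60.7 and 75.6 in the knockout-labelled libraries and to 85.4, 72.1 and 69.0 in the WT-labelled ones (exact permutation test, two-sided p = 0.60). Camk2g held the largest share of this sum in each library, 60.1%, 40.6% and 45.5% against 32.5%, 37.5% and 42.5%, with overlap (exact permutation test, two-sided p = 0.20). Camk1d held 2.99%, 3.02% and 3.33% against 7.60%, 9.12% and 6.80%, without overlap. When all 11 CaM kinase genes were summed by class, the CaMKII class held 56.1%, 42.0% and 44.9% against 32.5%, 38.3% and 40.3%, and the CaMKI class 21.8%, 30.3% and 30.6% against 34.3%, 37.6% and 31.2%. Neither class share overlapped between the groups, the first higher and the second lower in the knockout-labelled libraries (exact permutation test, two-sided p = 0.10 each, adjusted p = 0.40 over 20 values). The 2 shares come from 1 sum and are not independent of each other.

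**Figure D4:**
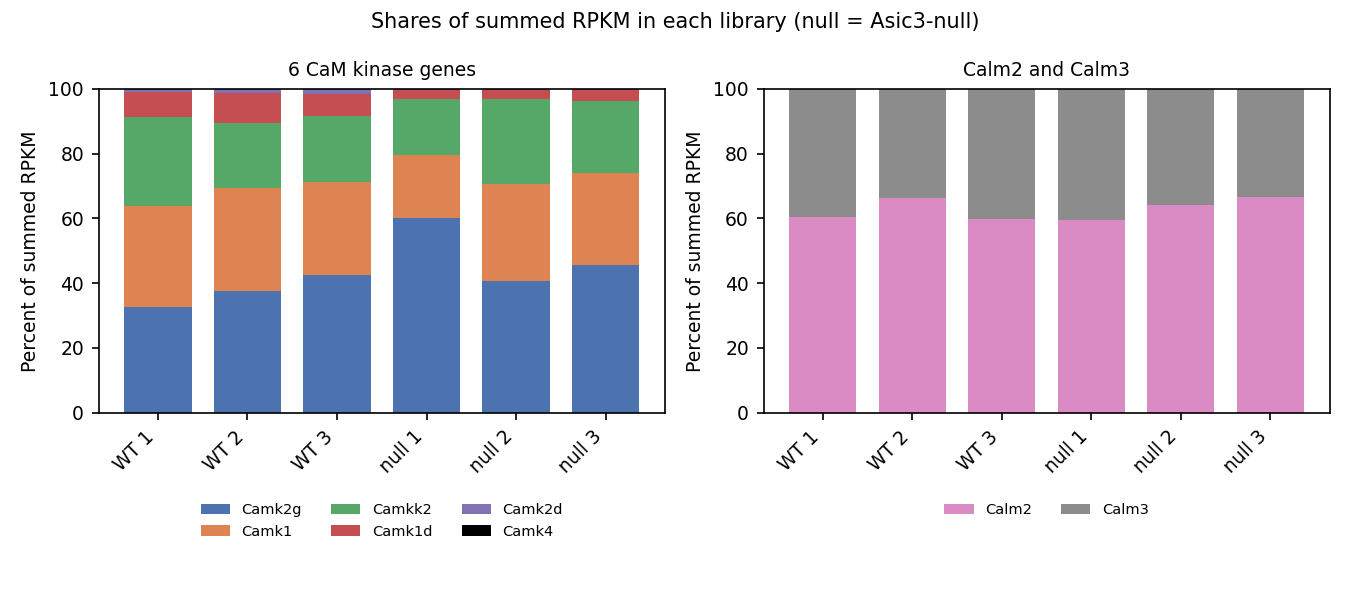
Percent of summed RPKM in each library, for the 6 CaM kinase genes (left) and for Calm2 and Calm3 (right). Camk2g takes 32.5% to 60.1% of the kinase sum, Camk1d is thinner in each knockout-labelled library, and Calm2 takes 59.6% to 66.7% of the sum with Calm3.

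Calm2 and Calm3, which encode the same calmodulin protein, were the most abundant members and were not called. Calm2 (Entrez 12314, chromosome 17, 87433401 to 87446935) had 212, 275 and 251 RPKM in the knockout-labelled libraries and 171, 270 and 222 RPKM in the WT-labelled ones. The spread within a group was larger than the difference between groups (log2 fold change 0.17, 95% interval -0.24 to 0.57, adjusted p = 0.691 from limma). Calm3 (Entrez 12315, chromosome 7, 16915379 to 16924032) had 144, 155 and 125 RPKM against 113, 138 and 148 RPKM, with overlap (log2 fold change 0.09, 95% interval -0.24 to 0.42, adjusted p = 0.806 from limma). Both values changed sign without WT replicate 1, to -0.0023 and -0.025. These genes rested on 438 to 813 reads per library, so counting error was small beside the spread between libraries.

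Summed, Calm2 and Calm3 gave 355, 430 and 376 RPKM in the knockout-labelled libraries and 284, 408 and 371 RPKM in the WT-labelled ones. The groups overlapped, and the means of 387.2 ± 38.3 and 354.2 ± 63.6 RPKM (SD, n = 3 each) differed by less than the spread between libraries (exact permutation test, two-sided p = 0.50). Calm2 made up 59.6%, 64.0% and 66.7% of this sum against 60.3%, 66.2% and 60.0%, also with overlap (exact permutation test, two-sided p = 0.80).

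Creb1 (Entrez 12912, chromosome 1, 64532794 to 64604548), the factor at the end of the path, had 12.7, 8.82 and 10.6 RPKM in the knockout-labelled libraries and 9.04, 10.9 and 9.33 RPKM in the WT-labelled ones. The highest and the lowest of the 6 values both came from knockout-labelled libraries. The 95% interval of its log2 fold change ran from -0.31 to 0.54, or 0.807-fold to 1.45-fold on the RPKM + 1 scale, from 160 to 248 reads per library. Leaving out Asic3-null replicate 1 moved the estimate to -0.0068. These data are RNA levels and hold no measure of CREB protein or its phosphorylation.

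The rest of the pathway was described from 9 lists of 114 genes, of which 81 were tested. Of these 81, 2 were called higher and 1 lower, 3.70% in all beside 3.35% of all tested genes, and their median log2 fold change was 0.02. The called genes were Nrgn and Meis1, both higher, and Dapk2, lower. Meis1 was listed because the study had picked it from these samples, so the share of 3.70% is not independent of these data. Dapk2, a calmodulin-regulated kinase of the death-associated family that is known from granulocytes, had 3.91, 5.70 and 5.54 RPKM in the knockout-labelled libraries and 18.0, 12.5 and 12.9 RPKM in the WT-labelled ones. Its groups did not overlap, its log2 fold change was -1.35 (95% interval -1.84 to -0.86, adjusted p = 0.0116 from limma), and it stayed called in all 14 alternatives. It was the only called gene of 9 tested among the related calmodulin-regulated kinases, whose most abundant gene, the phosphorylase kinase subunit Phkg2, had a log2 fold change of 0.02. The neutrophil markers moved the same way as Dapk2, and their part was not tested.

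Nrgn encodes neurogranin, a protein that holds calcium-free calmodulin, and rested on 2 to 18 reads per library. It had 3.34, 5.84 and 4.94 RPKM in the knockout-labelled libraries and 1.47, 0.79 and 1.31 RPKM in the WT-labelled ones. The groups did not overlap (log2 fold change 1.37, 95% interval 0.75 to 1.99, adjusted p = 0.0311 from limma), and the call was lost in 8 of 13 alternatives, including each omission of 1 library other than Asic3-null replicate 1, for which limma gave an adjusted p of between 0.0670 and 0.127. It was the only called gene of the 6 tested in its list of calmodulin-like and calmodulin-binding genes. Among the 5 tested genes of the list of other CaM kinase genes and their regulators, limma called 0. At an unadjusted p under 0.05, 3 passed, 2 higher and 1 lower, beside 15.9% of all tested genes. The CaM kinase phosphatases Ppm1e and Ppm1f had log2 fold changes of 0.61 and 0.32 without overlap (adjusted p = 0.264 and 0.289 from limma).

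The arms beside the kinases held no called gene. In the calcineurin and NFAT list, the calmodulin-activated phosphatase path, 0 of 10 tested genes were called, and the catalytic subunits Ppp3ca and Ppp3cb had log2 fold changes of -0.03 and 0.35 (adjusted p = 0.940 and 0.213 from limma). In the AMPK list, subunits of a target of CaMKK2, 0 of 5 were called and all 5 estimates were below 0, with Prkag1 at -0.07 and Prkab2 at -0.91 (adjusted p = 0.860 and 0.213 from limma). At an unadjusted p under 0.05, 1 gene of the first list, higher, and 2 of the second, lower, passed, beside 15.9% of all tested genes.

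Around CREB, limma called 0 of 10 tested CREB family factors, 0 of 5 coactivators and 0 of 13 other CREB kinases and phosphatases. In these lists 2, 0 and 3 had an unadjusted p under 0.05, beside 15.9% of all tested genes. The 2 family factors were lower, and of the 3 kinases and phosphatases 2 were higher and 1 lower. Atf4, a stress factor of the wider family and its most abundant gene, had 354.2 ± 86.0 against 289.9 ± 35.2 RPKM (SD, n = 3 each), with overlap. Creb3, a membrane-bound factor of the endoplasmic reticulum, had 12.1 ± 0.4 against 18.4 ± 1.0 RPKM without overlap and was not called (log2 fold change -0.56, adjusted p = 0.0855 from limma). Prkar1a, a regulatory subunit of protein kinase A, had 120.0 ± 10.4 against 92.5 ± 8.2 RPKM without overlap (log2 fold change 0.37, adjusted p = 0.198 from limma). The coactivators Crtc1 and Crtc2 had log2 fold changes of 0.33 and -0.10, and the phosphatase subunit Ppp1ca had 0.06.

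Of 22 textbook CREB target genes 18 were tested, and 1 was called, Meis1, higher in the knockout-labelled libraries (21.7, 28.2 and 35.3 RPKM against a mean of 14.4 ± 0.5 RPKM, SD, n = 3, log2 fold change 0.91, adjusted p = 0.0367 from limma). This homeobox gene entered the list because the study examined it downstream of CREB, having picked it from these samples, so its call is not independent evidence of a direction for the list. The call of Meis1 was lost in 8 of 14 alternatives, 5 of them the omission of any library but Asic3-null replicate 1, with limma adjusted p values between 0.0955 and 0.127. The median log2 fold change of the 18, with Meis1 included, was 0.37, with 11 above and 7 below 0, beside 0.03 over all tested genes. The groups lay apart for 2 genes that were higher and 2 that were lower, and a shift of the list as a whole was not tested. At an unadjusted p under 0.05, 3 of the 18, Meis1 among them, were higher and 2 lower, while 774 of all 12037 tested genes were higher and 1138 lower. Fos, the immediate early gene with the highest level, had 1138, 1292 and 1600 RPKM against 824, 1151 and 1143 RPKM, with overlap (log2 fold change 0.37, adjusted p = 0.336 from limma).

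**Figure D5:**
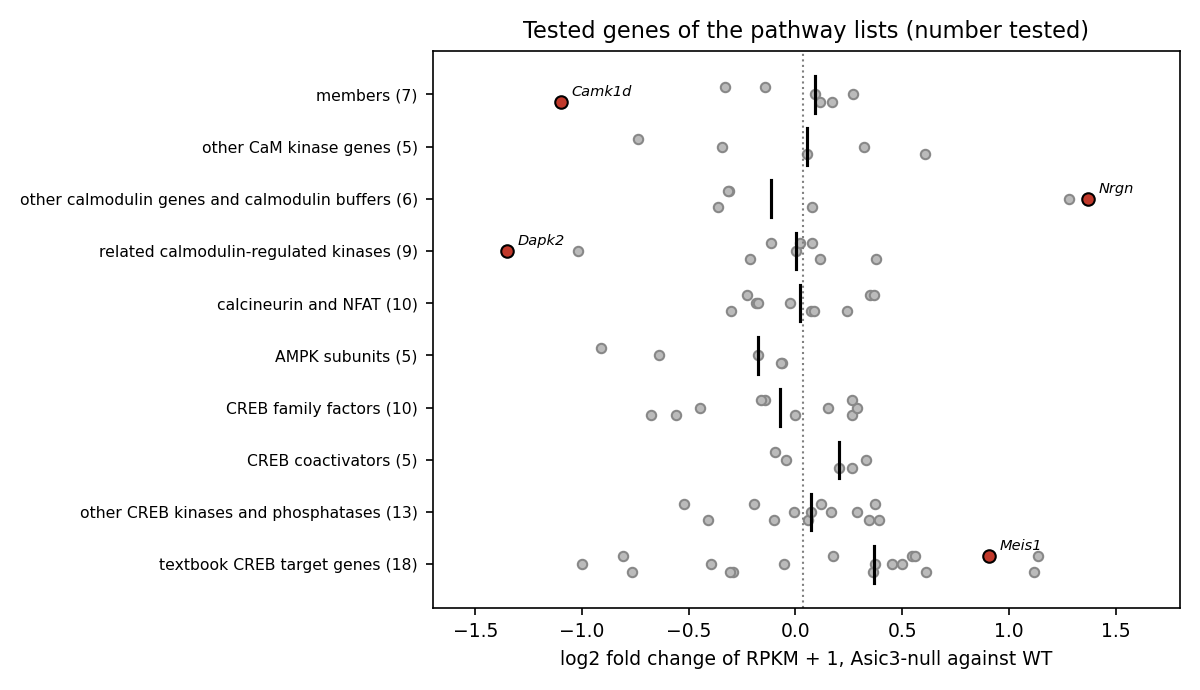
Log2 fold change of RPKM + 1 for each tested gene of the 9 members and the 9 pathway lists, with the number tested in parentheses, the list median as a black bar and the median of all tested genes as a dotted line. Named red points are called: Camk1d and Dapk2 lower, Nrgn and Meis1 higher.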

How the data were processed

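Total RNA of 3 libraries labelled Asic3-null and 3 labelled WT was made into libraries with TruSeq RNA v2. Per the labels, the authors used CASAVA 1.8.2 and TopHat2 2.0.12 with GRCm38, and deposited 1 table of RPKM values by Entrez number. The counting tool and annotation are not given in the sources used here. Symbols and positions came from RefSeq GRCm38.p6, which matched 25275 of 27179 genes.

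Whole reads were inferred from the RPKM values: every one of the 16825 nonzero genes came within 0.0001 reads of a whole number. Because molecules were not tagged, intervals on reads reflect counting error alone. The log2(RPKM + 1) of genes whose mean RPKM reached 1 was fitted in limma 3.58.1 (R 4.3.3; trended variance, genotype label as sole factor), and adjusted p values (Benjamini-Hochberg) under 0.05 were called. The filter was recomputed when a library was left out. Single values were compared by exact permutation with scipy 1.17.1. The steps were tested on simulated data. The class shares were added after seeing the data. 1 gene that the rule names is not reported here. The members and lists were chosen with earlier results of these data known. The genes named are the members, Asic3, each list's called genes, its most abundant gene and its gene of lowest p; marker and sex-linked genes serve as checks. Camkk1, Camk2a, Camk2b, Camk1g and Pnck are named to complete the classes, and Ogg1 and P2rx4 as overlapping genes, after their values were seen. Alternatives were another pseudocount (0.1), other filters (none, at least 5 RPKM), median-ratio and quantile scaling, no trend, the replicate block, limma-voom on the recovered reads, and each library left out.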

Additional observations from a re-analysis of the deposited data

How the results depend on the processing

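With a mean RPKM of at least 5, Camk1d was not tested and the count of members called lower went from 1 to 0. With the replicate block it was 0, and without any 1 library it was 0. With no filter on low values it was 1, and that 1 was Camk2d. The count called higher was 0 in all 14 alternatives. Over all genes, the block left 33 called higher and 213 lower, and leaving out 1 library left 20 to 41 higher and 173 to 254 lower. Of the pathway list genes, 2 were called higher in the reported fit, 0 with no filter on low values or with the block, 1 with a mean RPKM of at least 5, with no intensity trend or with limma-voom on the recovered reads, and 0 to 3 without 1 library. The count called lower was 1, or 3 with limma-voom, and 1 without each library.

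Replicate numbers are shared by the labels, and the same-numbered libraries had correlations of their deviations from the group mean of 0.06, -0.06 and -0.12, so the numbers were not treated as pairs. With the replicate block the adjusted p from limma was 0.104 for Camk1d, 0.0890 for Nrgn, 0.0761 for Meis1 and 0.0477 for Dapk2. The log2 fold changes that changed sign did so only without 1 library: Calm2 lay between -0.0023 and 0.32, Calm3 between -0.025 and 0.17, Camkk2 between -0.26 and 0.077, Creb1 between -0.0068 and 0.23, Crtc2 between -0.26 and 0.049, Phkg2 between -0.093 and 0.13, Ppp1ca between -0.0038 and 0.13, Ppp3ca between -0.084 and 0.016, and Prkag1 between -0.17 and 0.063. Depth limited Camk2d and Camk4, with 31 and 4 reads in all.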
